A study of Mus musculus with 6 samples.

Results

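The tripartite motif (TRIM) genes were examined in inferior vena cavae of mice, taken with their thrombi after ligation of the vessel for 24 h, which stops flow and lets a thrombus form. The members were all genes whose symbol is Trim followed by a number and, at most, 1 letter, and 43 of the 16533 genes in the deposited tables met this rule. Control mice were Stingf/f, in which Sting1 is flanked by loxP sites and no Cre is named, whereas the mKO genotype was Stingf/f Lyzm-Cre+/-, in which Cre under the Lyz2 locus deletes floxed sequence in neutrophils, monocytes and macrophages. The sample titles call the control mice WT and the mKO mice Sting. All mice underwent the deep vein thrombosis model, and the sources used here do not give the animals' age or strain background. Each group had 3 libraries, and each library was made from 3 pooled thrombi with their vessel, so the spread between libraries is a spread between pools. The RNA came from every cell in the vein and clot, so fewer cells of a type and less RNA per cell cannot be told apart.

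TRIM proteins typically have a RING domain, B-box zinc fingers and a coiled coil, though some lack the RING domain. Most act as E3 ubiquitin ligases, enzymes that attach ubiquitin to chosen substrates. Their carboxyl ends differ, and a PRY-SPRY, NHL, filamin or PHD-bromodomain end decides what each protein binds. Many are induced by interferon and act on antiviral signalling: TRIM25 acts on the RNA sensor RIG-I, TRIM21 binds antibody-coated virus inside the cell, and TRIM32 and TRIM56 have been reported to ubiquitylate STING. In mice the Trim12, Trim30 and Trim34 genes form an expanded cluster beside the beta-globin genes on chromosome 7, whereas muscle members such as Trim63 and Trim72 serve striated muscle.

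Start-site sequence is shown for the 7 interferon-inducible members that lie on chromosome 7, because 6 of them are neighbours of the beta-globin cluster and 4 of these stood far higher in 1 library in the results below. The sequences are from RefSeq on GRCm38.p6, and each runs from 100 bases before the annotated transcription start to 30 bases after it, 5′ to 3′ on the gene's strand. Capitals mark matches to a core of the interferon-stimulated response element, which is GAAA, any 2 bases and GAAA again. It was searched on both strands (TTTC, any 2 bases and TTTC on the other), with overlapping matches allowed. Trim30b, 1 of the 4, held no match in its window.
Trim34a (chr7:104244357-104244486, plus strand): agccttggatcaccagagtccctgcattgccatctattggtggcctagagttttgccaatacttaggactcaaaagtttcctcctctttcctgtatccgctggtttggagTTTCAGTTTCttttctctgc
Trim12a (chr7:104315466-104315595, minus strand): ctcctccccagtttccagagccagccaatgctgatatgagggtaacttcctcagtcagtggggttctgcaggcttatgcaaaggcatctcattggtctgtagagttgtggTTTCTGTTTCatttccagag
Trim12c (chr7:104353320-104353449, minus strand): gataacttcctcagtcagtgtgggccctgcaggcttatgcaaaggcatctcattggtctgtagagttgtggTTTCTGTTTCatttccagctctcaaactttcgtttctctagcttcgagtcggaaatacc
Trim30b (chr7:104358617-104358746, minus strand): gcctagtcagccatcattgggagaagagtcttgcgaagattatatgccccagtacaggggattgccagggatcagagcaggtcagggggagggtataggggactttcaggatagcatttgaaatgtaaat
Trim30a (chr7:104465164-104465293, minus strand): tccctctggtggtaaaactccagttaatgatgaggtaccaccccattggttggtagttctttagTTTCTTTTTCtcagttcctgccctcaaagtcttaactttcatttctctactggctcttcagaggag
Trim30d (chr7:104507820-104507949, minus strand): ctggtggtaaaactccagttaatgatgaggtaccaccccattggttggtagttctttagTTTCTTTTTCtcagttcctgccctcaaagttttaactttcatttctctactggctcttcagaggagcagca
Trim21 (chr7:102565453-102565582, minus strand): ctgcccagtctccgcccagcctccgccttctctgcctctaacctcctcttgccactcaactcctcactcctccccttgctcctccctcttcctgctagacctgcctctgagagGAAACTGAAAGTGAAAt

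Trim12a and Trim12c shared an unbroken run of 63 of the 130 printed bases, and Trim30a and Trim30d shared 89. In Trim12c the match began 29 bases before the annotated start. In Trim12a it began at base 11, with the start counted as base 1, inside the same shared run. Promoter windows of 300 bases, 250 before and 50 after the start, were listed for 34 of the 43 members, and 8 of these held the motif (23.5%). Among all genes tested, 3.93% of those with a listed window held the motif, and of all 32851 windows in the table, 3.44% did. A gene counted if any of its listed windows held the motif, so the share of genes and the share of windows are not like measures. Another listed start of Trim30a, not printed here, also had a match in its window. The motif was in 7 of 10 interferon-inducible members with a window (Trim12a, Trim12c, Trim21, Trim26, Trim30a, Trim30d and Trim34a) and in 1 of 24 other members, Trim2. Of 40 other interferon-stimulated genes, 30 had a window and 15 held it. A match describes these letters only and is not shown here to be a bound site.

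The libraries held 158579864 to 180068483 counts, and the TRIM genes together had 150775 to 337826 counts per library. TRIM genes took 0.0951% to 0.122% of the counts in control libraries and 0.0934%, 0.202% and 0.103% in mKO libraries 1 to 3, so mKO library 2 had the largest TRIM share. Endothelial and smooth muscle markers were present in every library (summed levels of 472 to 788 and 668 to 3009 CPM, which are counts scaled to a library of 1000000), as were neutrophil markers (9485 to 18694 CPM). The libraries differed in tissue content: 7 sympathetic neuron markers summed to 3.13 CPM in mKO library 3 and to 113 to 313 CPM elsewhere, and 11 skeletal muscle markers summed to 253 CPM in mKO library 3 and 70.7 CPM in control library 3. They summed to 4.98 to 35.4 CPM elsewhere. The targeted gene Sting1 had 25.1, 31.4 and 27.1 CPM in control libraries 1 to 3 and 22.7, 21.4 and 28.7 CPM in mKO libraries 1 to 3, so its groups overlapped, and a count over the whole gene in all cells does not show a deletion limited to myeloid cells. Lyz2, the locus that carries Cre, had 1429.6, 1759 and 1885 CPM in control and 643, 1149 and 1153 CPM in mKO.

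No TRIM gene passed an adjusted p of 0.05 between the groups by edgeR's quasi-likelihood test, where 0% of the 16523 genes tested passed. All 43 members passed the expression filter. The smallest adjusted p among them was 0.307, for Trim10. At an unadjusted p under 0.05 there were 11 members, 4 higher and 7 lower in mKO, beside 5.60% of all genes higher and 6.26% lower. DESeq2 called 1 member, Trim10, as higher, where it called 1.47% of all genes higher and 1.33% lower. It gave no p-value for Trim12a and Trim34a, so these could not be called. With limma voom 0 members were called, as were 0 of the 16523 genes tested. By limma voom 9 members had an unadjusted p under 0.05. The share of all genes at that level was not counted for this tool. The libraries of the groups did not overlap for 4 higher members (Trim8, Trim10, Trim41 and Trim59) and 8 lower members (Trim2, Trim16, Trim21, Trim24, Trim32, Trim44, Trim45 and Trim69), beside 8.76% of all genes higher and 9.39% lower. With 3 against 3 libraries an exact permutation test, two-sided, cannot go below p = 0.1, the value that every gene without overlap has by construction. The median log2 fold change, mKO over control, was -0.12 over the members and -0.03 over all genes tested, with 28 members below 0 and 15 above; 54.1% of all genes lay below 0. With size factors of the DESeq2 type 25 members lay below 0 and 18 above, and the median of all genes was -0.01.

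**Figure D1:**
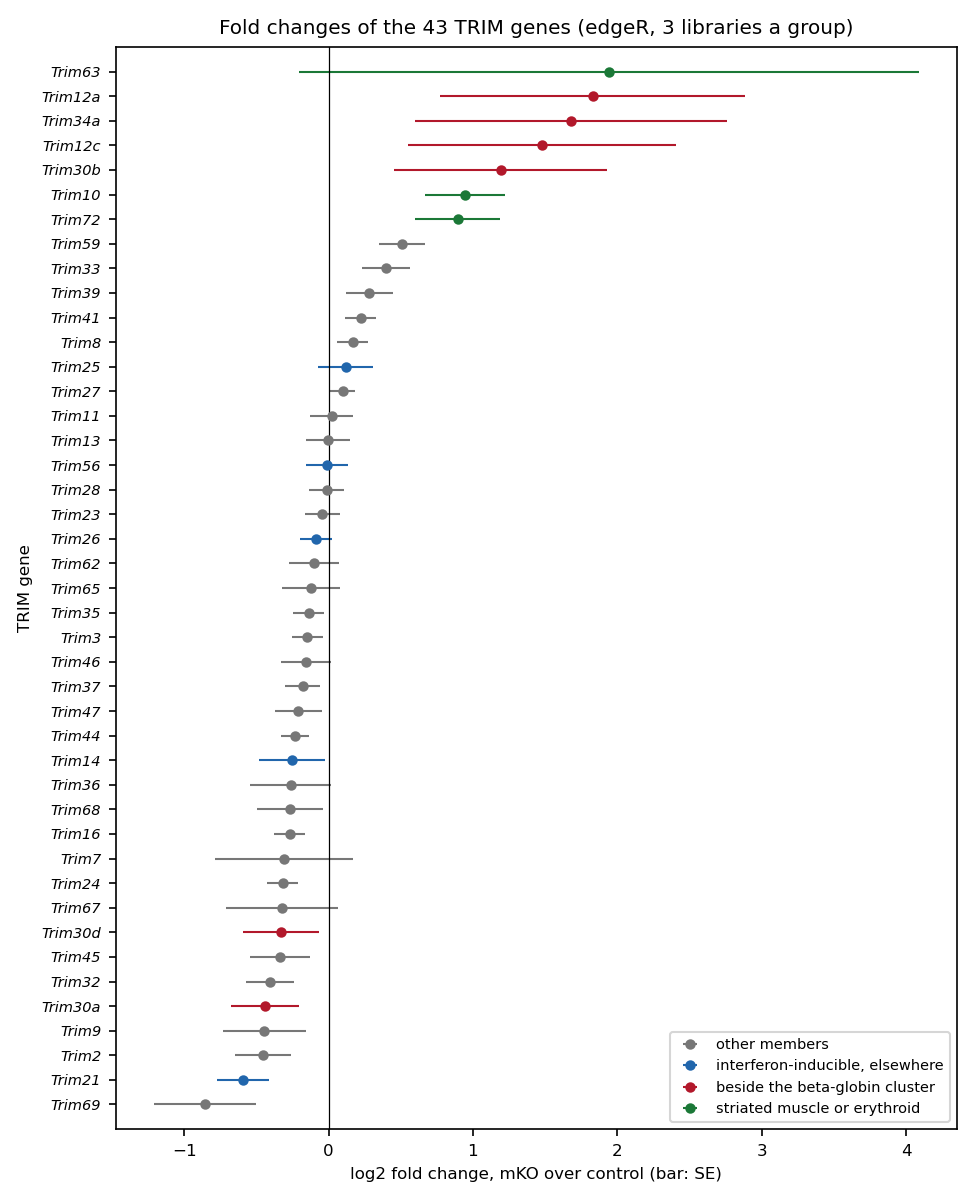
Fold changes of the 43 TRIM genes, mKO over control, on the log2 scale (horizontal axis), with 1 row per gene and bars giving the SE from edgeR. Most members lie within 0.5 of 0, and 4 of the 5 largest values belong to genes beside the beta-globin cluster, from 1.19 for Trim30b to 1.83 for Trim12a, with wide bars.

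Levels can be compared between genes only per length, so CPM were divided by the merged exon length of each gene in GENCODE M21. On that scale Trim30a, which in macrophages lowers NF-kB signalling, had the highest mean in control, at 29.99 ± 10.8 CPM per kb (SD, n = 3), followed by Trim25 at 25.7 ± 5.12, Trim8 at 17.4 ± 0.609, Trim30b at 15.9 ± 4.25 and Trim28 at 12.5 ± 1.38 CPM per kb. The spread of Trim30a covered the level of Trim25, so these neighbours did not differ beyond their spread, and both lay above Trim8 in every control library. The ranges of Trim8 and Trim30b, and of Trim30b and Trim28, overlapped. Trim30d, Trim12c, Trim11, Trim47, Trim34a, Trim41 and Trim12a lay between 7.01 and 12.2 CPM per kb. At the other end were Trim67 (0.0607 CPM per kb), Trim9 (0.108) and Trim63 (0.118), known from neurons and from striated muscle. The highest mean was 494 times the lowest. The control libraries agreed best for Trim27 (coefficient of variation 2.59%), Trim8 (3.51%) and Trim16 (3.79%). They differed most for Trim63 (155%), Trim7 (62.2%) and Trim67 (44.6%), which had few counts, and next for Trim30d (40.03%) and Trim30a (36.1%), which had many.

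**Figure D2:**
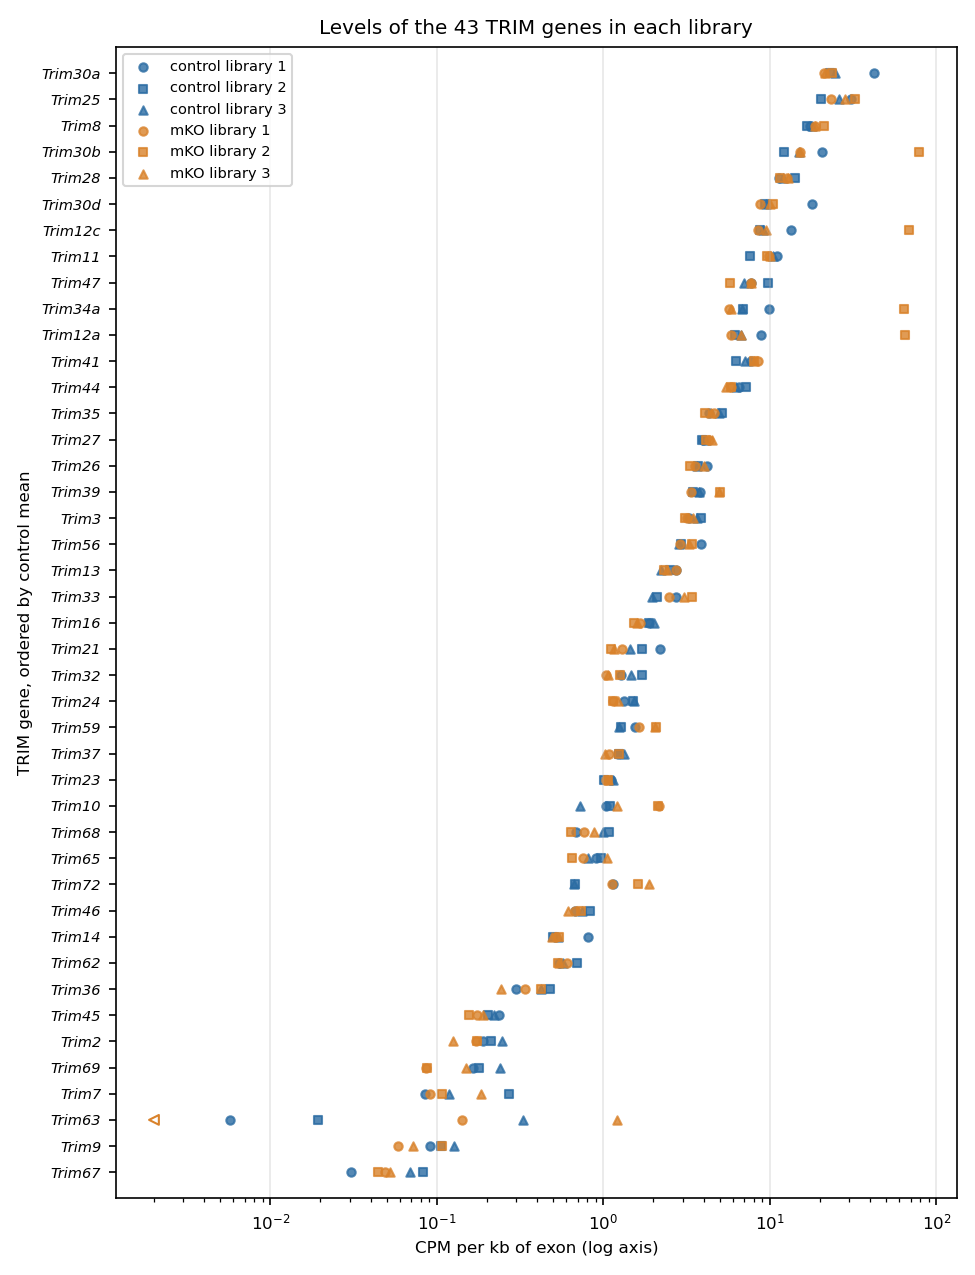
Level of each TRIM gene in each library as CPM per kb of exon (log axis), in the order of the control mean, with blue for control and orange for mKO libraries; an open triangle at the left edge is a library with 0 counts (Trim63, mKO library 2). The orange squares of mKO library 2 stand far to the right for Trim30b, Trim12c, Trim34a and Trim12a, and the blue circle of control library 1 stands to the right for Trim30a and Trim30d.

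The largest differences among well counted members lay in 1 mKO library, and in neighbouring genes. Trim12a, a mouse relative of the retrovirus restriction factor TRIM5, had 51.04, 35.8 and 39.04 CPM in control and 33.8, 375 and 39.03 CPM in mKO. Its close copy Trim12c had 50.01, 32.5 and 34.1 CPM in control and 31.6, 258 and 35.6 CPM in mKO. Both were thus 7.35 and 5.15 times the highest of the other 5 libraries in mKO library 2, while mKO libraries 1 and 3 lay among the controls or below them. Trim34a, of the same interferon-inducible branch, had 25.5, 17.9 and 17.6 CPM in control and 14.7, 165 and 15.1 CPM in mKO, 6.48 times the highest other library in mKO library 2. Trim30b had 154, 91.1 and 113 CPM in control and 115, 589.9 and 115 CPM in mKO, 3.83 times the highest other. The other TRIM genes of the cluster did not share this. Trim30a had 175, 94.8 and 101 CPM in control and 87.3, 97.1 and 88.7 CPM in mKO, and Trim30d had 67.2, 34.9 and 35.8 CPM in control and 32.8, 39.5 and 37.5 CPM in mKO, so for both the highest library was control library 1 and mKO library 2 lay close to the median of the others (1.02 and 1.10 times).

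The 12 tested genes on each side of the globin cluster were examined in chromosomal order. Those at least 3-fold over every other library in mKO library 2 formed 1 unbroken run. It started next to the cluster on the side of Hbb-y. Genes missing from the deposited counts have no place in this order. From the cluster outward the level in mKO library 2 was 24.4 times the median of the other libraries for the pseudogene Dnajc19-ps, 9.41 for Trim34a, 9.61 for Trim12a, 7.56 for Trim12c and 5.14 for Trim30b, and then 1.02 for Trim30a, 1.10 for Trim30d and 1.36 for Gm16464. Of these, Trim34a lies on the strand opposite to the globin genes and the others lie on the same strand. On the other side of the cluster, Trim68 and Trim21 were 0.729 and 0.767 times the median of the others in mKO library 2. The globin genes themselves stood only slightly higher there: Hbb-bs had 117157 CPM in mKO library 2 and at most 108086 CPM in the others, and Hbb-bt had 32740 against at most 31233 CPM. The embryonic globins Hbb-bh1 and Hbb-y followed another order, with 37.5 and 39.1 CPM in mKO library 2, 62.0 to 67.4 CPM in the other mKO libraries and control library 1 at 44.8 and 46.4 CPM, but only 4.57 to 5.45 CPM in control libraries 2 and 3. Across the 13894 genes with a mean of at least 1 CPM, 6 were at least 3-fold over every other library in mKO library 2. They were these 4 TRIM genes, Dnajc19-ps, and Fbxw11 on chromosome 11 (846 CPM against 37.5 to 40.7 CPM). Fbxw11 lies 6 tested genes after the alpha-globin cluster. The count was 1 to 13 genes in the other libraries and held 0 TRIM members in each. The part of globin transcript or red cell content in these levels was not tested.

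**Figure D3:**
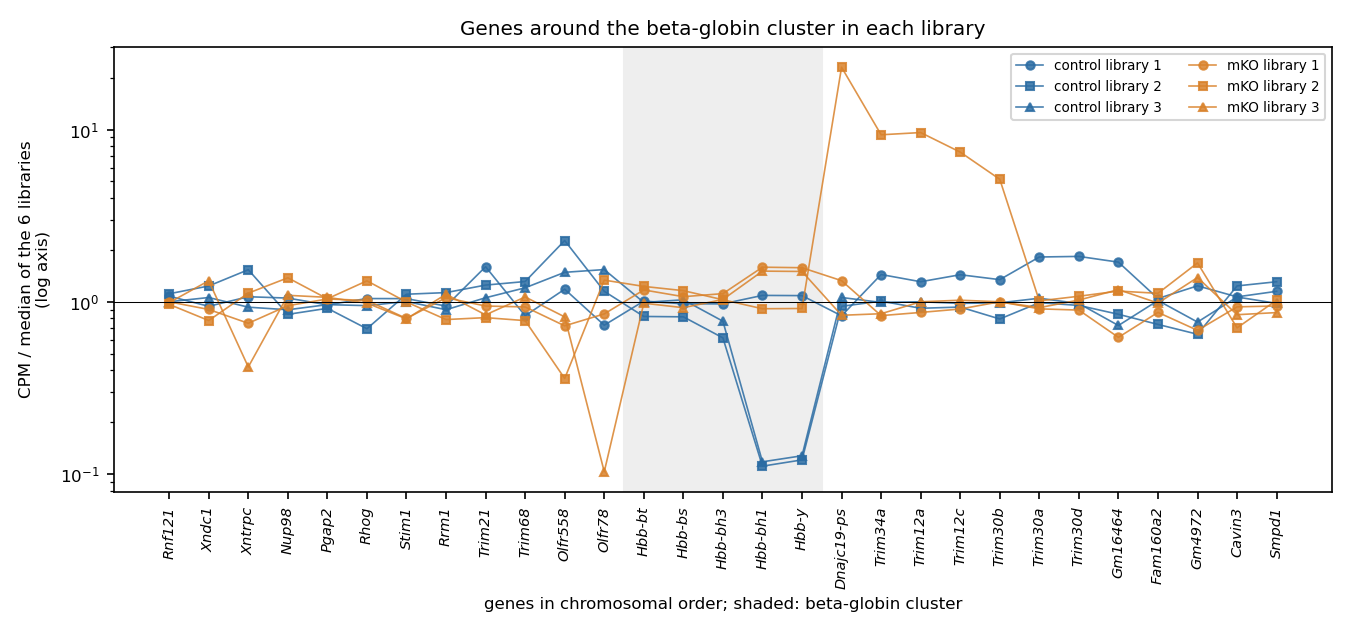
Level in each library divided by the median of the 6 libraries (log axis), for the 12 tested genes on each side of the beta-globin cluster and for the globin genes (shaded), in chromosomal order. In mKO library 2 the line rises at Dnajc19-ps next to the cluster, stays high through Trim34a, Trim12a, Trim12c and Trim30b, and returns to the other libraries at Trim30a.

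The group comparison for these genes depended on that library. With all libraries the log2 fold changes were 1.83 (SE 1.06) for Trim12a, 1.68 (SE 1.08) for Trim34a, 1.48 (SE 0.93) for Trim12c and 1.19 (SE 0.74) for Trim30b, with edgeR adjusted p from 0.531 to 0.563. Without mKO library 2 they were -0.20 (SE 0.18), -0.45 (SE 0.19), -0.21 (SE 0.21) and -0.06 (SE 0.23). Trim30a had -0.44 (SE 0.24) with all libraries and -0.49 (SE 0.28) without mKO library 2, and Trim30d had -0.33 (SE 0.26) and -0.39 (SE 0.32). Without control library 1, their highest library, the values were -0.10 for Trim30a and 0.05 for Trim30d. The median over these 6 genes turned from 1.34 to -0.30 without mKO library 2, and was -0.02 without both control library 1 and mKO library 2. The other 4 genes listed for this cluster were not analysed here. Reads of close copies may be split between them: of the 150-base windows in the longest GENCODE transcript, 3.48% of Trim30a and 4.02% of Trim30d occurred in the other gene, 8.81% of Trim34a in Trim34b and 2.56% of Trim12c in Trim5. No such window was shared for Trim12a or Trim30b. Only exact matches to the longest transcript were searched, and the part of shared reads in these levels was not tested.

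The interferon-inducible list held 13 genes, of which 11 were in the tables; 6 of these 11 are the genes just described and 5 lie outside that run of neighbours, with Trim21 on the other side of the globin cluster. Trim21, which recognises antibody-bound virus in the cytosol, was the clearest of them, with 8.13, 6.36 and 5.37 CPM in control and 4.81, 4.12 and 4.27 CPM in mKO. Every mKO library lay below every control library, with a fold change of -0.59 on the log2 scale (SE 0.18) and an edgeR adjusted p of 0.312. Trim25, the ligase that activates RIG-I, had 176, 117 and 151 CPM in control and 134, 186 and 162 CPM in mKO, and its groups overlapped widely (log2 fold change 0.12, SE 0.19). Trim14, which lacks a RING domain and acts as an adaptor, had 3.51, 2.17 and 2.33 CPM in control and 2.26, 2.35 and 2.12 CPM in mKO, so control library 1 alone stood higher (log2 fold change -0.25, SE 0.23, and -0.005 without that library). Trim26 had 28.8, 25.3 and 25.2 CPM in control and 24.3, 22.7 and 27.6 CPM in mKO (log2 fold change -0.09, SE 0.11), and Trim56 had 35.8, 27.2 and 26.3 CPM in control and 26.7, 31.8 and 30.2 CPM in mKO (log2 fold change -0.010, SE 0.14).

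Over the 11 interferon-inducible members the median log2 fold change was -0.01, with 6 below 0 and 5 above. It was -0.09 over the 5 outside that run. Of the 11, 1 had non-overlapping groups, Trim21, a share near the 9.39% of all genes that were lower in this way. Without mKO library 2 all 11 lay below 0, with a median of -0.21 and values from -0.54 (Trim21) to -0.003 (Trim25), where 51.7% of all genes lay below 0. Groups did not then overlap for 3 of them, Trim21, Trim30a and Trim34a, where 15.0% of all genes had lower mKO libraries. The smallest edgeR adjusted p was 0.450. Trim12a, Trim12c, Trim30b and Trim34a are among the 11 and stood high in mKO library 2, so their values fall once it is left out. These counts are therefore no test beside the shares of all genes. The values also moved with control library 1. Without control library 1 alone, 4 of 11 lay below 0 (55.0% of all genes), and without control library 1 and mKO library 2, 6 of 11 did (52.1% of all genes), with a median of -0.01. Leaving out both of those libraries was chosen after seeing the data.

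Other interferon-stimulated genes, listed with earlier results of these data known, gave a different picture in the same libraries. All 40 had a log2 fold change below 0, with a median of -0.76; 31 had an unadjusted p under 0.05 and 30 had non-overlapping groups, all lower, beside 6.26% and 9.39% of all genes. By edgeR 0 passed an adjusted p of 0.05, and DESeq2 called 11 lower, beside 1.33% of all genes. Their mean score, on the log2 scale relative to the mean of the 6 libraries, was 0.82, 0.28 and 0.02 in control libraries 1 to 3 and -0.23, -0.63 and -0.25 in mKO libraries 1 to 3. The score of the 5 interferon-inducible TRIMs outside that run was 0.36, -0.08 and -0.05 in control and -0.13, -0.04 and -0.06 in mKO. Control library 1 was thus the highest on both lists, and mKO library 2 was the lowest by the other interferon-stimulated genes. By these TRIMs the libraries other than control library 1 lay close together, from -0.13 to -0.04, with mKO library 2 at -0.04. Of these TRIMs, Trim21 and Trim26 had their lowest level in mKO library 2, and Trim25 had its highest there. Without control library 1 and mKO library 2, 37 of the 40 remained below 0, with a median of -0.38. Those with the smallest p were Ifit2, an antiviral RNA-binding protein, at -0.73 (SE 0.14), the secreted glycoprotein gene Lgals3bp at -0.73 (SE 0.15) and Xaf1 at -1.06 (SE 0.23), each with an edgeR adjusted p from 0.188 to 0.225. Whether the 2 lists differ was not tested.

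**Figure D4:**
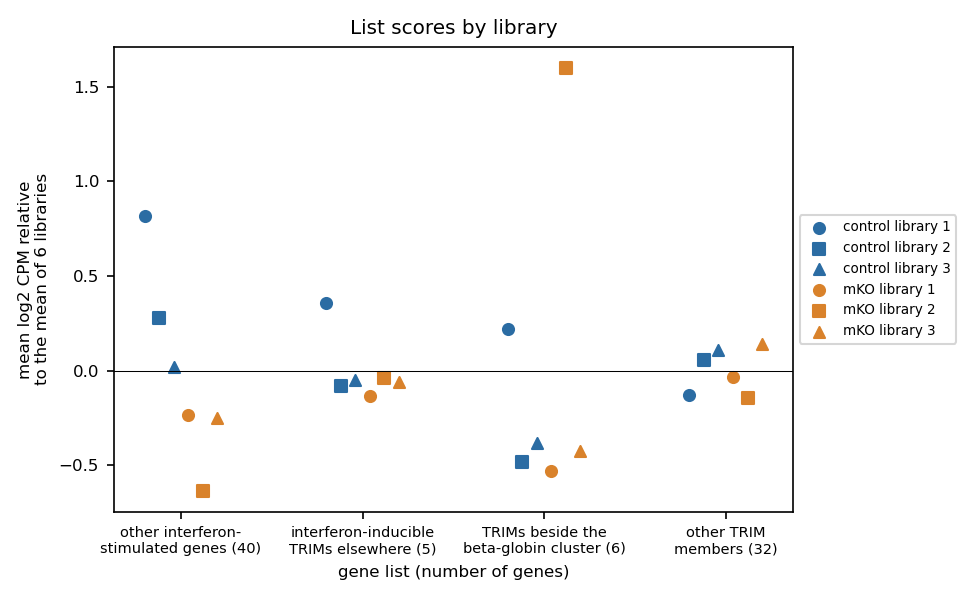
Mean log2 CPM of each gene list relative to the mean of the 6 libraries (vertical axis), with 1 point per library, blue for control and orange for mKO. The groups separate for the 40 other interferon-stimulated genes, overlap for the 5 interferon-inducible TRIMs elsewhere, and are dominated by mKO library 2 (1.60) for the 6 TRIMs beside the beta-globin cluster.

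Members reported to act on STING or on cGAS, the enzyme that activates it, were 8 by the list and 6 in the tables: Trim13, Trim14, Trim30a, Trim32, Trim41 and Trim56. Trim32, an NHL-repeat ligase whose loss causes a muscular dystrophy, had 4.12, 5.48 and 4.76 CPM in control and 3.35, 4.04 and 3.46 CPM in mKO. Its groups did not overlap, with a fold change of -0.40 on the log2 scale (SE 0.17) and an edgeR adjusted p of 0.407. In Trim41, which has been reported to modify cGAS, mKO was the higher group, with 26.9, 21.9 and 25.03 CPM in control and 29.9, 28.1 and 28.2 CPM in mKO. Here too the groups did not overlap, with a fold change of 0.22 on the log2 scale (SE 0.11) and an edgeR adjusted p of 0.458. Trim13, a ligase of the endoplasmic reticulum membrane, had 4.502, 4.12 and 3.69 CPM in control and 4.502, 3.803 and 3.96 CPM in mKO, with no separation (log2 fold change -0.005, SE 0.15). The median of these 6 members was -0.13, with 5 below 0 and 1 above, where 54.1% of all genes lay below 0. Groups did not overlap for 1 lower and 1 higher member, beside 9.39% and 8.76% of all genes. Signalling proteins that TRIM ligases act on were listed as well: of 21 tested, 15 lay above 0 and 6 below, with a median of 0.14, 5 with non-overlapping groups (all higher, beside 8.76% of all genes). By edgeR 0 of them passed an adjusted p of 0.05 and 5 had an unadjusted p under 0.05, all higher (5.60% of all genes). DESeq2 called 1 higher, Traf3 (1.47% of all genes). Among them Traf3, an adaptor between these sensors and interferon induction, had 23.6, 22.6 and 21.1 CPM in control and 28.3, 28.3 and 29.8 CPM in mKO (log2 fold change 0.36, SE 0.09). Ikbkg, the regulatory subunit of the IKK complex, had 0.47 (SE 0.16), and Sqstm1, the autophagy receptor p62, 0.52 (SE 0.18), with edgeR adjusted p of 0.345 and 0.357.

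Of 4 chromatin members listed, 3 were in the tables, and 0 passed the test. Trim28 (KAP1), the co-repressor of KRAB zinc-finger proteins, had 47.5, 58.5 and 50.1 CPM in control and 52.9, 48.02 and 53.8 CPM in mKO and showed no separation (log2 fold change -0.01, SE 0.12). Trim24, a cofactor of nuclear receptors, had 11.4, 12.8 and 13.01 CPM in control and 9.79, 9.69 and 10.4 CPM in mKO. All 3 mKO libraries were below the controls, with a fold change of -0.32 on the log2 scale (SE 0.11) and an edgeR adjusted p of 0.335. Trim33, which regulates Smad signalling and erythroid gene expression, had 26.9, 20.5 and 19.3 CPM in control and 24.4, 33.5 and 29.8 CPM in mKO. Control library 1 lay above mKO library 1, so the groups overlapped, with a fold change of 0.40 on the log2 scale (SE 0.17) and an edgeR adjusted p of 0.4105.

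The erythroid and muscle members are given beside the markers of those tissues. Trim10, a member needed for terminal red cell maturation, had 2.32, 2.45 and 1.63 CPM in control and 4.87, 4.75 and 2.69 CPM in mKO. The groups did not overlap, with a fold change of 0.94 on the log2 scale (SE 0.28) and an edgeR adjusted p of 0.307; DESeq2 gave an adjusted p of 0.0445, so the call rests on that tool alone. Leaving out 1 library at a time moved the edgeR value between 0.78 and 1.17. Red cell markers also had positive values: all 9 tested of 10 listed lay above 0 with a median of 0.54, 5 of them with non-overlapping groups, beside 8.76% of all genes. Their score was -0.19, -0.49 and -0.28 in control and 0.47, 0.46 and 0.03 in mKO libraries 1 to 3, and their summed level was 200927 to 259040 CPM in control and 238918 to 284918 CPM in mKO. mKO library 3 had both the lowest Trim10 level and the lowest red cell score among mKO libraries, whereas control library 2 had the lowest red cell score of all 6 and the highest Trim10 level among controls. The part of red cell content in the Trim10 difference was not tested. Trim58, the other erythroid member listed, was not analysed here.

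Trim63 (MuRF1), which marks sarcomere proteins for degradation, had 3, 10 and 145 counts in control and 70, 0 and 586 counts in mKO libraries 1 to 3, which are 0.0163, 0.0548 and 0.936 CPM, and 0.405, 0 and 3.43 CPM. The 3 libraries with most Trim63 were also those with most skeletal muscle marker transcript, in the same order; the markers summed to 4.98, 6.30 and 70.7 CPM in control and 35.4, 6.22 and 253 CPM in mKO libraries 1 to 3. Its log2 fold change was 1.94 (SE 2.15; edgeR adjusted p 0.714) and turned to -0.69 without mKO library 3. No fold is drawn from it. Trim72 (MG53), a membrane repair protein of striated muscle, had 2.55, 1.51 and 1.48 CPM in control and 2.502, 3.600 and 4.21 CPM in mKO. The groups overlapped because control library 1 lay just above mKO library 1, with a fold change of 0.89 on the log2 scale (SE 0.29) and an edgeR adjusted p of 0.333. Trim72 did not follow the markers library by library: mKO library 2 had the second highest Trim72 level and one of the lowest muscle marker sums. Of 12 skeletal muscle markers listed 11 were tested, and all lay above 0, with a median of 1.83, where 54.1% of all genes lay below 0. Groups were non-overlapping for 0 of them, beside 8.76% of all genes that were higher in this way. The part of these markers in the Trim72 difference was not tested.

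**Figure D5:**
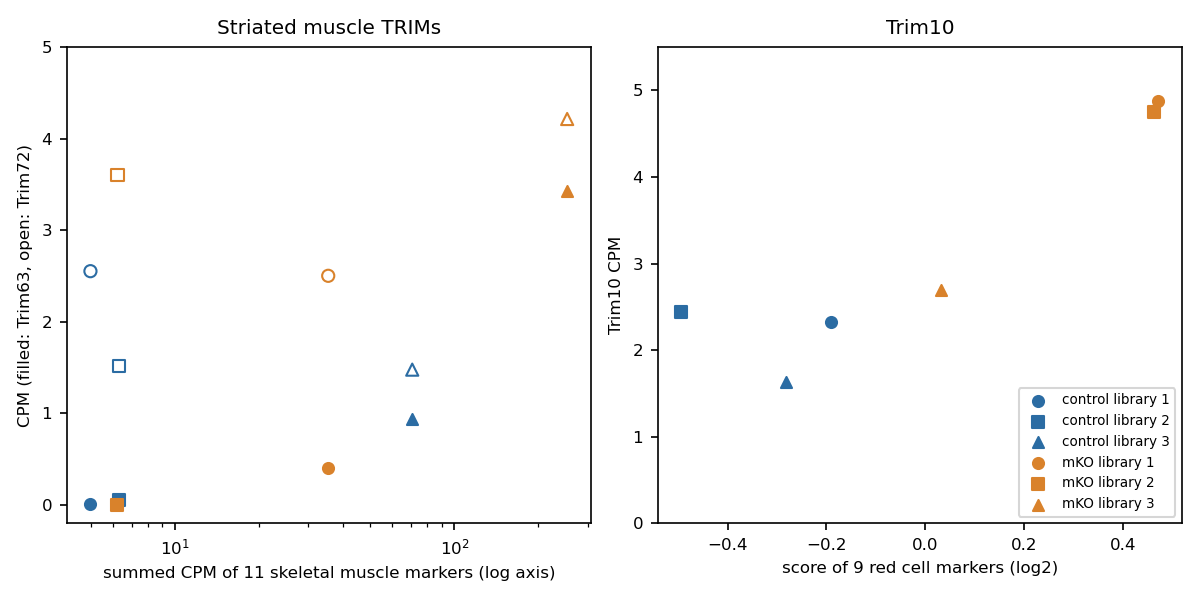
Left, CPM of Trim63 (filled) and Trim72 (open) against the summed CPM of 11 skeletal muscle markers (log axis) in the 6 libraries; right, CPM of Trim10 against the score of 9 red cell markers (log2). Trim63 is near 0 in the 3 libraries with a marker sum of 6.30 CPM or less, while Trim72 is 3.60 CPM in mKO library 2 at a marker sum of 6.22; the mKO libraries 1 and 2 are highest on both axes of the right panel.

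Among the remaining members, Trim59, a membrane-anchored ligase, had the smallest p of those above 0. It had 5.17, 4.27 and 4.15 CPM in control and 5.52, 6.92 and 6.87 CPM in mKO. Each mKO library lay above each control library, with a fold change of 0.51 on the log2 scale (SE 0.16) and an edgeR adjusted p of 0.317. Trim39, which takes part in control of the cell cycle, had 27.6, 24.9 and 26.98 CPM in control and 24.3, 36.4 and 35.9 CPM in mKO. Trim8, which acts in cytokine signalling, had 64.7, 61.98 and 66.5 CPM in control and 69.1, 78.8 and 68.9 CPM in mKO, a small difference with no overlap (log2 fold change 0.17, SE 0.11). Trim27 and Trim11 were the 2 others above 0, at 0.10 (SE 0.09) and 0.02 (SE 0.15). Trim27 had 21.8, 21.7 and 22.7 CPM in control and 23.5, 22.7 and 24.6 CPM in mKO, and Trim11 had 39.7, 27.3 and 37.6 CPM in control and 35.5, 34.6 and 36.04 CPM in mKO. The value for Trim39 was 0.28 (SE 0.16; edgeR adjusted p 0.512), and mKO library 1 was the lowest of the 6 libraries.

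Below 0, Trim69, a microtubule-associated member, had the lowest fold change of all 43 members but also few counts. It had 0.3103, 0.3401 and 0.452 CPM in control and 0.162, 0.164 and 0.281 CPM in mKO. The libraries of the groups did not overlap, with a fold change of -0.86 on the log2 scale (SE 0.35) and an edgeR adjusted p of 0.407. Trim2, an NHL-repeat ligase that acts on neurofilaments, had 3.74, 4.16 and 4.85 CPM in control and 3.41, 3.45 and 2.46 CPM in mKO. Its lowest library was mKO library 3, which nearly lacked the sympathetic neuron markers (log2 fold change -0.45, SE 0.19). Those markers summed to 113, 199 and 313 CPM in control and 155, 227 and 3.13 CPM in mKO libraries 1 to 3. Their part in the Trim2 difference was not tested. Trim44, which lacks a RING domain, had 36.9, 40.9 and 35.5 CPM in control and 32.9, 32.8 and 30.8 CPM in mKO. Trim16, which takes part in autophagy of damaged membranes, had 8.63, 8.600 and 9.19 CPM in control and 7.61, 7.003 and 7.32 CPM in mKO. For both, the mKO libraries lay within a narrow range below the controls (log2 fold change -0.23, SE 0.10, and log2 fold change -0.27, SE 0.11). Trim45, with a filamin-type domain, had 1.41, 1.22 and 1.32 CPM in control and 1.05, 0.936 and 1.14 CPM in mKO (log2 fold change -0.34, SE 0.21). Over the 4 microtubule-associated COS-box members Trim9, Trim36, Trim46 and Trim67 all log2 fold changes were below 0, from -0.44 to -0.16. Of all genes, 54.1% lay below 0. Of these 4, 0 had non-overlapping groups, beside 9.39% of all genes that were lower in this way. The 3 NHL-repeat members tested, Trim2, Trim3 and Trim32, had a median of -0.40. The members not named with values in every library (Trim3, Trim7, Trim9, Trim23, Trim35, Trim36, Trim37, Trim46, Trim47, Trim62, Trim65, Trim67 and Trim68) had log2 fold changes from -0.44 for Trim9 to -0.04 for Trim23, and 0 of them had non-overlapping groups. Every member above 0 was among those named, and members of smallest p were taken out first. The direction and overlap of this remainder therefore follow in large part from the choice.

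The symbol rule leaves out TRIM proteins that carry other names, and 4 of 5 such genes listed were in the tables. Mid1 (TRIM18), which binds microtubules and ubiquitylates a phosphatase 2A regulator, had 10.5, 11.4 and 11.1 CPM in control and 6.18, 7.33 and 7.74 CPM in mKO. Its mKO libraries were all below the controls, with a log2 fold change of -0.63 (SE 0.12; edgeR adjusted p 0.188). Its relative Mid2 (TRIM1) had 5.91, 7.95 and 6.46 CPM in control and 4.85, 4.78 and 5.65 CPM in mKO (-0.41, SE 0.16). Pml (TRIM19), the organiser of PML nuclear bodies, had 26.5, 25.5 and 21.9 CPM in control and 20.2, 14.3 and 19.3 CPM in mKO (-0.46, SE 0.15). Mefv (TRIM20, pyrin), an inflammasome sensor of myeloid cells, went the other way, with 59.2, 46.4 and 58.3 CPM in control and 84.4, 85.5 and 69.8 CPM in mKO (0.55, SE 0.14). Groups did not overlap for any of these 4, 3 lower and 1 higher, beside 9.39% and 8.76% of all genes. DESeq2 called Mid1 lower and Mefv higher (adjusted p 0.00350 and 0.0296), where it called 1.33% and 1.47% of all genes. Neutrophil markers, which such cells express, had a median of 0.41 over 7 genes, with 6 above 0, and summed to 9485 to 15240 CPM in control and 13555 to 18694 CPM in mKO; their part in the Mefv difference was not tested.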

How the data were processed

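Per the labels, polyadenylated RNA was sequenced as paired reads of 150 bases. Tables deposited by the authors hold raw counts of reads for each gene, 1 table per library. The submitters' processing notes name FastQC 0.11.8, HISAT2 2.1.0, Trim Galore 0.4.0, featureCounts 2.0.1 and GRCm39; which did what, the annotation release, strand setting and handling of ambiguous reads are unstated. Where genes overlap or run antisense to each other, their reads then cannot be separated.

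Counts of the whole table were fitted with edgeR 4.0.16 in R 4.3.3 (TMM normalization, default expression filter leaving 16523 genes, robust quasi-likelihood test, Benjamini-Hochberg adjustment over all genes, threshold 0.05), with no replicate block; the SE is the one the F-test implies. CPM use TMM-scaled library sizes. Permutation tests enumerated the 20 assignments of 6 libraries to 3 and 3 on log2(CPM + 0.01), and a list score is the mean of those values relative to the 6-library mean. Exon lengths, gene order and 150-base windows come from GENCODE M21 (all 43 members matched) and start-site windows from RefSeq, both on GRCm38; no coordinate was combined with the files' build. Depth was 158579864 to 180068483 counts per library, and no libraries of a group agreed within sampling noise. P-values measure the spread between pools.

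On simulated counts edgeR's p-values were calibrated, though its share of false calls also lay above the threshold. DESeq2 made several times more false calls than its threshold allows. Simulated counts need not match these data, and a call by DESeq2 alone is taken as weak evidence. Members and lists were chosen with earlier results of these data known. Values per library are given for listed interferon-inducible, globin-side, muscle, erythroid, chromatin and STING-related members, for the 5 higher and 5 lower other members of smallest p, and for genes of smallest p in other lists. Alternatives were RLE and upper-quartile normalization, no filter, DESeq2 1.42.0, limma voom 3.58.1, a block on replicate number, omission of single libraries, of haemoglobin and mitochondrial genes and, added after seeing the data, of 2 pairs of libraries.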

Additional observations from a re-analysis of the deposited data

How the results depend on the processing

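By edgeR no TRIM member was called under any alternative run, and DESeq2 called 1, Trim10. Over all genes edgeR called 0, DESeq2 462, and leaving out each library in turn 0 to 7 (7 without control library 1, 4 without mKO library 3, 2 without control library 3); without the 2 libraries with most skeletal muscle transcript (control library 3 and mKO library 3) it called 6, and without control library 1 and mKO library 2 it called 8. Both pairs were chosen after seeing the data. The median over the 2 striated muscle TRIMs was 1.42, 0.014 without mKO library 3 and 2.95 without control library 3. The median over the interferon-inducible TRIMs is near 0, and its sign turned with DESeq2 (0.011), size factors of the DESeq2 type (0.011), limma voom (0.00269) and the replicate block (0.00164). It ranged from -0.21 to 0.15 when each library was left out. The median over the TRIMs beside the beta-globin cluster ranged from -0.30 (without mKO library 2) to 1.73, and was -0.023 without control library 1 and mKO library 2.

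Single members near 0 changed sign. DESeq2 and its size factors gave 0.016 each for Trim13, 0.010 each for Trim28 and 0.011 each for Trim56. Trim56 had 0.00269 by limma voom and 0.00164 with the replicate block, and Trim13 had 0.000752 without haemoglobin and mitochondrial genes. Without control library 1 and mKO library 2 the values were -0.038 for Trim12a, -0.25 for Trim34a, 0.12 for Trim13, 0.037 for Trim26 and 0.090 for Trim56. Leaving out each library gave ranges of -0.13 to 0.13 for Trim11, -0.20 to 2.29 for Trim12a, -0.21 to 1.90 for Trim12c, -0.076 to 0.067 for Trim13, -0.024 to 0.26 for Trim25, -0.075 to 0.079 for Trim28, -0.059 to 1.56 for Trim30b, -0.60 to -0.10 for Trim30a, -0.49 to 0.050 for Trim30d, -0.45 to 2.15 for Trim34a, -0.092 to 0.15 for Trim56 and -0.69 to 5.14 for Trim63. For Trim12a, Trim12c, Trim30b and Trim34a the sign turned only without mKO library 2 or without it and control library 1, among the alternatives run. Causes were not tested.

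The replicate numbers do not pair the libraries: deviations from the group means correlated at -0.14, -0.15 and -0.27 across genes for libraries 1, 2 and 3. With the replicate block 0 members were called, as were 0 of the 16523 genes tested. An unadjusted p under 0.05 was found for 5 members with the block. Without it there were 11, beside 11.9% of all genes. The share of all genes with the block was not counted. No library correlated best with its own number. Depth limits Trim63, with 0 to 586 counts.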

Other observations

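Genes beside the alpha-globin cluster on chromosome 11, in the order of the tested genes from the cluster outward, also stood far apart between libraries. Sh3pxd2b, an adaptor of podosomes, had 22.8, 25.8 and 1524 CPM in control libraries 1 to 3 and 3364, 1840 and 1668 CPM in mKO libraries 1 to 3. Ubtd2 had 1.85, 1.85 and 1.85 CPM in control and 347, 188 and 1.19 CPM in mKO, and Efcab9 had 0.0452 to 0.0708 CPM in control and 209.7, 114 and 0.0176 CPM in mKO. Stk10, the next gene, was high in mKO libraries 1 and 2, and Fbxw11, the gene after it, was high in mKO library 2 only, at 846 CPM. That library is the one in which Trim34a, Trim12a, Trim12c and Trim30b were raised; in mKO library 1, where Ubtd2 and Efcab9 were highest, those 4 TRIM genes were at 14.7, 33.8, 31.6 and 115 CPM, within or just below the range of the other libraries. These genes were chosen after their values were seen.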
